A study of Mus musculus with 20 samples.

Results

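The 10 genes described here are Trp53, which encodes the transcription factor p53, and 9 genes that p53 is known to activate: Cdkn1a, Mdm2, Ccng1, Bbc3, Pmaip1, Zmat3, Sesn2, Phlda3 and Eda2r. They were taken by symbol from count tables of 24421 genes in 20 RNA-seq libraries of the mouse cerebral cortex. Each of the 10 symbols was present in every library. Trp53 has been proposed as a target of the APP intracellular domain (AICD), the fragment released when γ-secretase cuts APP, and the comparison asks whether p53 mRNA and the mRNAs of its targets change in tissue that lacks the APP family.

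The libraries came from the neocortex (NCX) and the hippocampus (HP) of mice at 3 months of age, with 5 libraries per genotype and region. In cTKO mice, floxed alleles of App, Aplp1 and Aplp2 are deleted by Cre recombinase under the Camk2a promoter, which acts after birth in the excitatory neurons of the forebrain. Controls were littermates with the same floxed alleles and no Cre, which the labels call wild type, and mice of both sexes were of a mixed C57BL/6J and 129 background. Libraries keep their labels, in which WT stands for control and KO for cTKO. The deleted genes remained present in the other cells of the tissue. The RNA is from whole tissue, in which fewer cells of a type and less RNA per cell cannot be told apart.

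p53 is held low in unstressed cells because MDM2 marks it for degradation. Damage to DNA and other stresses stabilize the protein, which then binds DNA as a tetramer and raises transcription of genes for cell cycle arrest, apoptosis, repair and its own feedback. In neurons, which no longer divide, p53 is known mainly for its part in cell death after injury. Much of this control acts on the protein, so the level of Trp53 mRNA is not a measure of p53 activity, and target mRNAs are the nearer readout that RNA-seq offers.

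p53 recognizes DNA through pairs of a half-site of 10 bases. Among the promoter windows of RefSeq (GRCm38.p6), taken as the 250 bases before each annotated start, the half-site consensus was found in 2341 of 32851 windows, or 7.13%. The consensus reads the same on both strands. Of the 10 genes, 8 had an entry and 4 of these 8 held the half-site, against 8.20% of 27025 genes. The stretches around these half-sites are shown because p53 binds DNA through such letters and because the 4 genes include Trp53 itself. Capitals mark the half-sites.
Trp53: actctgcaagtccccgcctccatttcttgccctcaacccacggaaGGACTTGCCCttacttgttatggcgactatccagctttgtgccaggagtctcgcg
Cdkn1a: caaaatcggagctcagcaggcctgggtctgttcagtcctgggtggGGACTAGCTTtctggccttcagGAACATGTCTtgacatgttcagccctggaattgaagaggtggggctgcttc
Mdm2: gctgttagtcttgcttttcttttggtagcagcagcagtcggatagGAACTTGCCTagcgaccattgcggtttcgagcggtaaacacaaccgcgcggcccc
Ccng1: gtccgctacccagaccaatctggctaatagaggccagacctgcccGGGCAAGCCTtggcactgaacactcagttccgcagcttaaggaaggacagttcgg
The Trp53 stretch is chr11:69580239-69580338 on the plus strand, where its half-site begins 75 bases before the start and 17 bases belong to an exon of the neighbouring gene Wrap53. The Cdkn1a stretch is chr17:29090861-29090978 on the plus strand, with half-sites that begin 73 and 51 bases before the upstream annotated start. It was the only one of the 4 with more than 1 half-site, which 0.259% of all windows had. Cdkn1a had another window, before an annotated start further downstream (chr17:29093519-29093768), which held 0 half-sites. The Mdm2 stretch is chr10:117710890-117710989 on the minus strand, with its half-site 186 bases before the start. The Ccng1 stretch is chr11:40755417-40755516 on the minus strand, with its half-site 185 bases before the start. No half-site was present in the windows of Bbc3, Sesn2, Phlda3 and Eda2r, which says nothing of sites elsewhere. For Bbc3 and Phlda3, the bases after the annotated starts did not match a GENCODE transcript of the gene, so their windows are less certain. Zmat3 and Pmaip1 were not matched. A match of letters is not a measurement of binding.

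Total counts per library ranged from 12169474 to 25331954, so that the 3 counts taken as the detection floor equalled 0.118 to 0.247 CPM, the count scaled to a common library size, for counting error only. Levels are given in CPM, with each library size adjusted by TMM in edgeR. App, Aplp1 and Aplp2 fell in cTKO tissue in both regions, with log2 fold changes from -1.93 to -1.25 in the hippocampus and from -2.10 to -1.60 in the neocortex (highest adjusted p 3.31e-05, edgeR's quasi-likelihood test). All 8 markers of excitatory neurons were counted in every library, at a summed 8363 to 12236 CPM. The cTKO libraries KO HP rep4 and KO NCX rep5 stood apart. They held 2528 and 2600 counts of the embryonic globin Hbb-y, against 4 to 17 in the other 18 libraries, and they held the most Trp53 of their regions. The fold changes of Trp53 are therefore given with and without them.

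In the hippocampus, Trp53 (chr11:69580359-69591873) was at 24.0, 24.7, 21.6, 23.9 and 23.9 CPM in WT HP rep1 to rep5 and at 26.6, 31.6, 25.5, 37.7 and 26.1 CPM in KO HP rep1 to rep5. Every cTKO library was above every control library, by little for rep3 and rep5 and by most for rep4. Mean levels were 23.6 ± 1.19 CPM for controls and 29.5 ± 5.16 CPM for cTKO mice (SD, n = 5 each). Groups that do not overlap were found for 3.15% of the 13702 genes tested, 1.91% with cTKO higher. The log2 fold change was 0.32 (standard error 0.11, 95% interval 0.090 to 0.55). It did not pass the threshold of 0.05 after adjustment over all genes (edgeR's quasi-likelihood test, unadjusted p = 0.0102, adjusted p = 0.247, range 0.136 to 0.453 over 18 alternatives). The exact permutation test of log2 CPM for this single gene had p = 0.00794 (two-sided), which is the lowest p possible with 5 libraries per genotype. The study reports no significant difference in p53 mRNA by qRT-PCR and no change by RNA-seq, in either region.

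Without KO HP rep4, the cTKO mean of Trp53 was 27.4 ± 2.78 CPM (SD, n = 4) and the log2 fold change was 0.21 (standard error 0.081, adjusted p = 0.323). The genotypes still did not overlap, and the exact permutation p was again the lowest possible, 0.00794. Without that library, 4.82% of all genes did not overlap. With raw totals in place of TMM and all libraries, the genotypes overlapped and the exact permutation p was 0.0159.

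In the neocortex, Trp53 was at 20.9, 23.8, 24.8, 26.6 and 25.7 CPM in WT NCX rep1 to rep5 and at 27.1, 23.6, 24.8, 25.9 and 34.6 CPM in KO NCX rep1 to rep5. The genotypes overlapped, and only KO NCX rep5 stood well above the controls. The log2 fold change was 0.17 (standard error 0.11, 95% interval -0.072 to 0.41, adjusted p = 0.648, edgeR's quasi-likelihood test), from means of 24.4 ± 2.19 and 27.2 ± 4.34 CPM (SD, n = 5 each). Without KO NCX rep5 it was 0.059 (standard error 0.086, adjusted p = 0.854). The difference between the regions in the change of Trp53 was 0.16 on the log2 scale and did not pass (95% interval -0.16 to 0.48, unadjusted p = 0.312). It was 0.15 without both libraries, 0.047 without KO HP rep4 alone and 0.25 without KO NCX rep5 alone (unadjusted p = 0.0859).

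**Figure D1:**
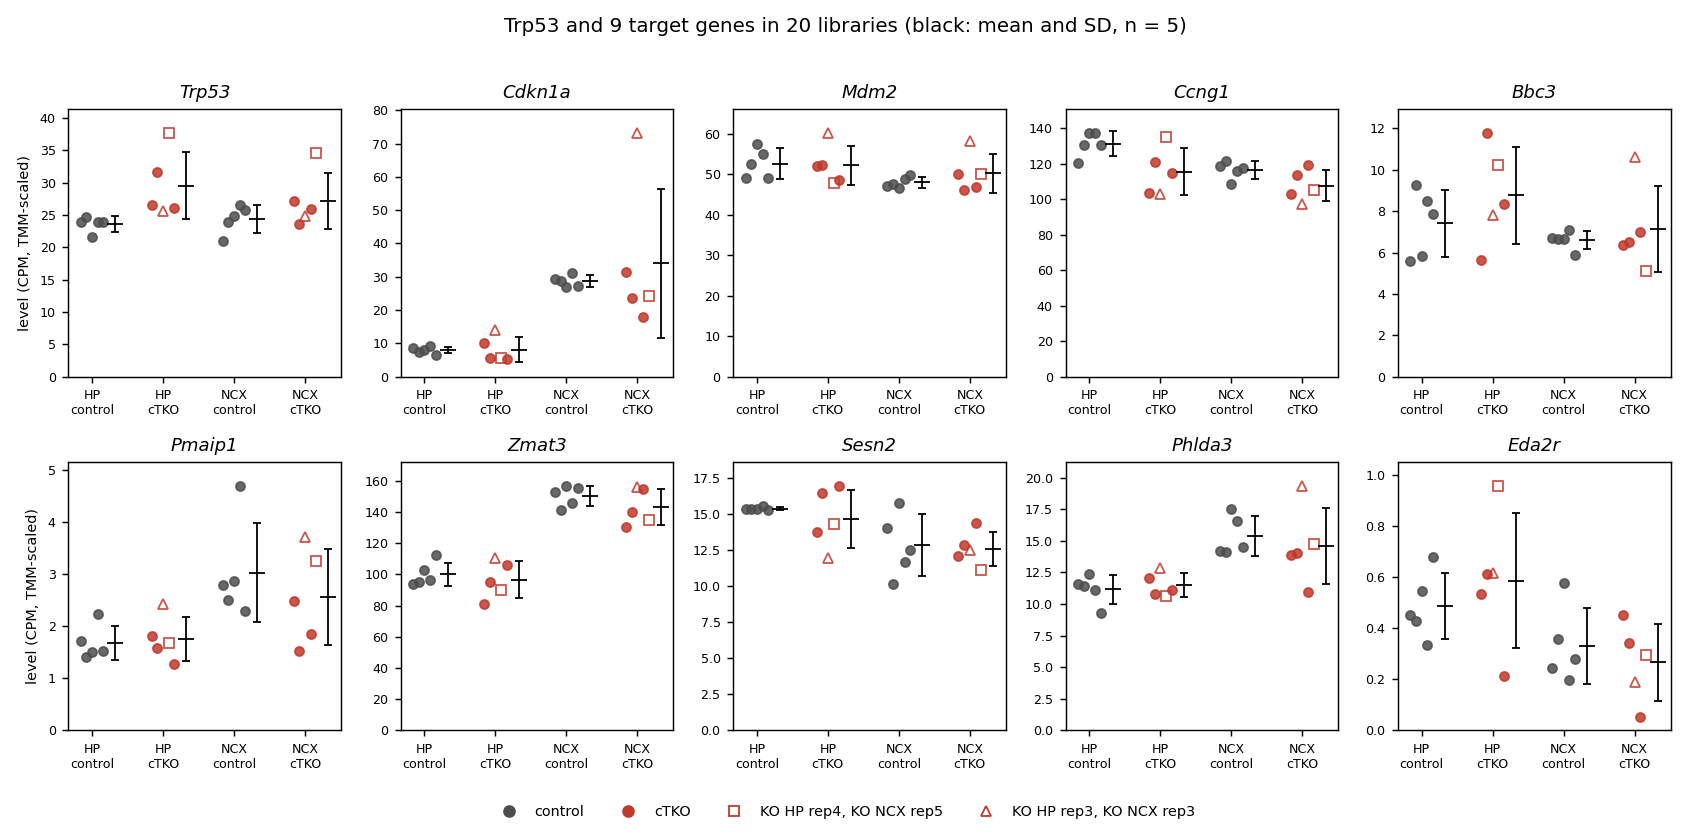
Level (CPM on TMM-scaled library sizes, linear axis from 0) of the 10 genes in 20 libraries, grouped as hippocampus (HP) and neocortex (NCX), control (grey) and cTKO (red), with the mean and SD of 5 libraries in black. Open squares mark KO HP rep4 and KO NCX rep5, which were highest in Trp53, and open triangles mark KO HP rep3 and KO NCX rep3, which were highest in Cdkn1a, Mdm2 and Phlda3.

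The libraries with the most Trp53 were also those with the most mRNA of dividing cells. The summed level of 20 mitotic genes, such as Mki67 and Top2a, was 253 CPM in KO HP rep4 and 322 CPM in KO NCX rep5, against 29.0 to 53.1 CPM in the other 18 libraries. Of these 20 genes, 19 were at their regional maximum in KO HP rep4 and 20 in KO NCX rep5. The 16 markers of embryonic tissue summed to 630 and 1007 CPM there, against 50.8 to 387 CPM elsewhere. The sum elsewhere was mostly Igf2, at 1022 to 8443 counts, against 4900 and 5043 counts in KO HP rep4 and KO NCX rep5. H19 had 4078 and 4288 counts in these 2 libraries, against 11 to 47 elsewhere. Of the 16 markers 7, the posterior Hox genes among them, were at 0 in both libraries. The part of these transcripts in the Trp53 level of the 2 libraries was not tested. In the hippocampus, Foxm1, a transcription factor of mitotic genes, had a log2 fold change of 1.30 and Aurka, a mitotic kinase, of 0.77 (adjusted p = 0.209 and 0.261). The median over the 11 mitotic genes tested was 1.30, and 0.36 without KO HP rep4. In the neocortex, Mcm6, a subunit of the replicative helicase, had a log2 fold change of 1.32 and Foxm1 of 1.49 (adjusted p = 0.134 and 0.247), and the median was 1.25, or 0.055 over 10 genes without KO NCX rep5. None of the mitotic genes passed in either region. Foxm1 was nevertheless above every control in all cTKO libraries of both regions. Its lowest cTKO levels were 2.29 CPM in KO HP rep5 and 2.45 CPM in KO NCX rep3. Control levels reached 2.16 CPM in WT HP rep1 and 2.09 CPM in WT NCX rep4. Mcm6 reached 21.3 CPM in KO NCX rep1, but the genotypes overlapped. The study called Foxm1 higher in both regions with edgeR, and it lists Foxm1 among genes without a significant difference by qRT-PCR.

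**Figure D2:**
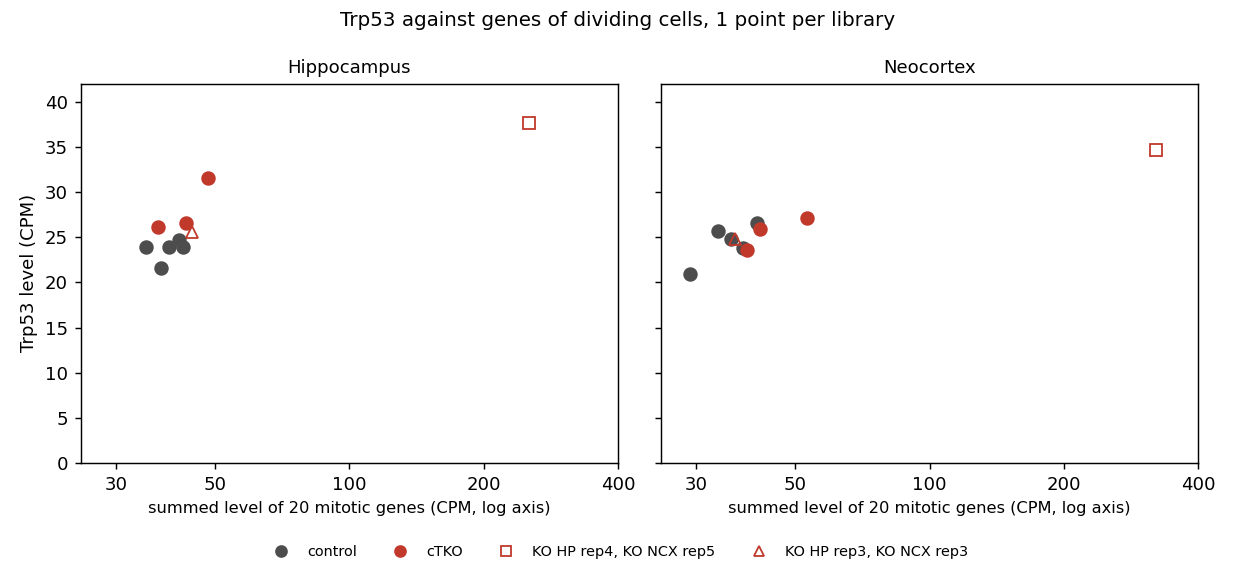
Trp53 level (CPM) against the summed level of 20 mitotic genes (CPM, log axis), 1 point per library, control in grey and cTKO in red. The open squares, KO HP rep4 at 253 and 37.7 CPM and KO NCX rep5 at 322 and 34.6 CPM, lie apart from the other 18 libraries, whose mitotic sums were 29.0 to 53.1 CPM.

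No target of p53 passed the test in either region. Of the 10 genes, 9 passed the filter on low counts (CPM above 1 in at least 5 of 10 libraries), and 0 of 9 passed the test in the hippocampus, where it called 0.489% of all genes, or in the neocortex, where it called 0.188%. At an unadjusted p under 0.05, Trp53 (higher) and Ccng1 (lower) were found in the hippocampus, 1 in each direction beside 6.13% (higher) and 5.88% (lower) of all genes, and 0 of 9 were found in the neocortex beside 10.4%. The 9 genes were also not called by edgeR's exact test, its likelihood ratio test or DESeq2, which called 1.88%, 1.89% and 2.42% of all genes in the hippocampus and 1.18%, 1.21% and 1.60% in the neocortex. Among the 8 targets tested in the hippocampus, 4 fold changes were positive and 4 negative, with a median of 0.0044 beside 0.0049 over all genes tested. In the neocortex, 3 were positive and 5 negative, with a median of -0.039 beside 0.0090 over all genes. Without KO HP rep4, the median over the targets was 0.038 and 5 of 8 were positive. The test again called 0 of 9, where it called 0.484% of all genes, and Trp53 and Ccng1 were again the genes at an unadjusted p under 0.05, where 11.8% of all genes were. Without KO NCX rep5, 0 of 9 were called in the neocortex beside 0.966%.

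**Figure D3:**
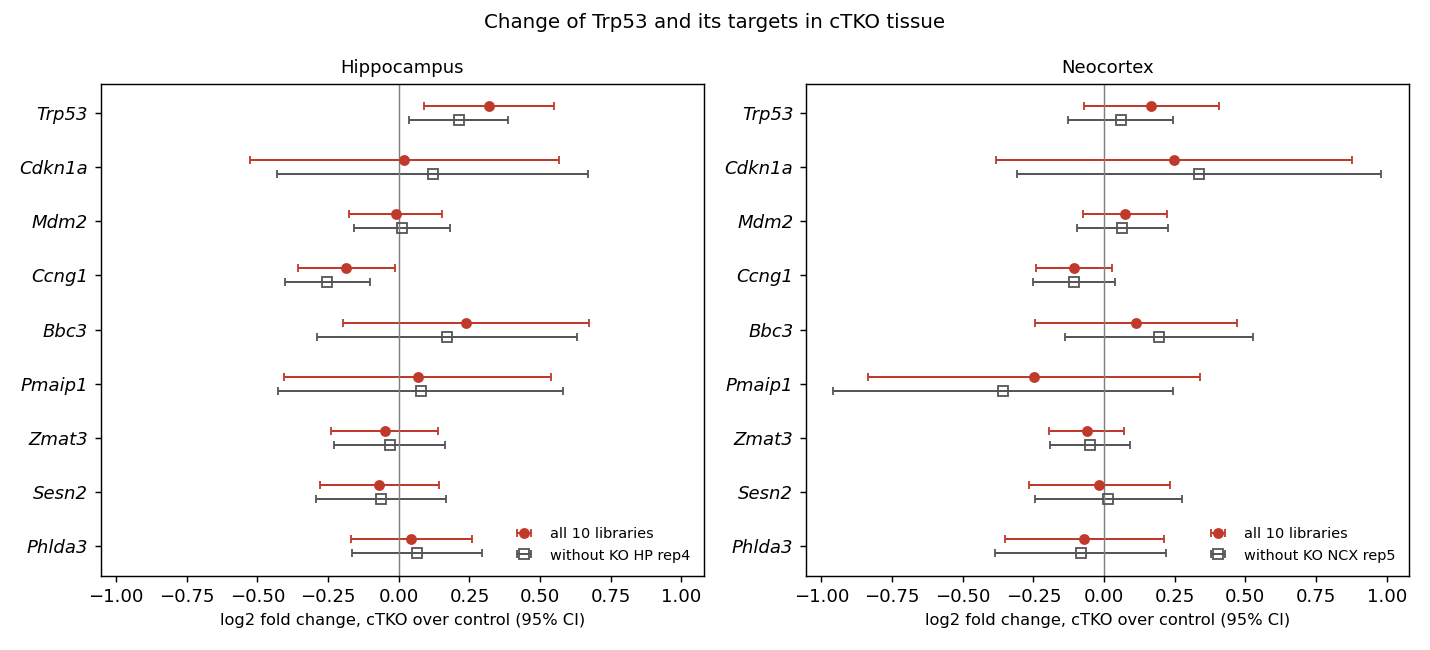
Log2 fold change of cTKO over control with its 95% interval for Trp53 and the 8 targets tested, in the hippocampus (left) and the neocortex (right), with all libraries (filled) and without KO HP rep4 or KO NCX rep5 (open). In the hippocampus the intervals of Trp53 (0.090 to 0.55) and Ccng1 (-0.36 to -0.015) leave out 0 before any adjustment, and in the neocortex every interval includes 0.

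Mdm2 and Ccng1 are the feedback arm of the response. Mdm2 (chr10:117688875-117710758) encodes the ubiquitin ligase that degrades p53, and its mRNA is a sensitive target. Control hippocampus held 52.6 ± 3.76 CPM and cTKO hippocampus 52.2 ± 4.85 CPM (SD, n = 5 each), with a log2 fold change of -0.011 (95% interval -0.18 to 0.15). Control and cTKO neocortex held 47.9 ± 1.34 and 50.2 ± 4.79 CPM, with a log2 fold change of 0.073 (95% interval -0.075 to 0.22). These intervals were among the narrowest of the 9 genes.

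Ccng1 (chr11:40748552-40755311) encodes cyclin G1, which recruits a phosphatase to MDM2. In the hippocampus it was at 120, 131, 137, 137 and 131 CPM in WT HP rep1 to rep5 and at 103, 121, 103, 135 and 115 CPM in KO HP rep1 to rep5. KO HP rep1, rep3 and rep5 were below every control, while KO HP rep2 and rep4 lay within the control range, so that the genotypes overlapped. The log2 fold change was -0.19 (standard error 0.079, unadjusted p = 0.0356, adjusted p = 0.374, edgeR's quasi-likelihood test) and the exact permutation p was 0.0556. Without KO HP rep4 it was -0.25 (standard error 0.069, unadjusted p = 0.00329, adjusted p = 0.160) and the exact permutation p was 0.0238. Control neocortex held 116 ± 4.95 CPM of Ccng1 and cTKO neocortex 108 ± 8.76 CPM (SD, n = 5 each), a log2 fold change of -0.11 that did not pass (adjusted p = 0.596). The sign was opposite to that of Trp53 in both regions.

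Cdkn1a (chr17:29090976-29100727) encodes p21, the inhibitor of cyclin-dependent kinases through which p53 arrests the cell cycle. In the neocortex it was at 29.5, 28.7, 27.0, 31.1 and 27.3 CPM in WT NCX rep1 to rep5 and at 31.5, 23.7, 73.2, 17.97 and 24.2 CPM in KO NCX rep1 to rep5. The controls lay close together, while the cTKO libraries ranged from the lowest to the highest level of the region. The log2 fold change was 0.25 (standard error 0.29, 95% interval -0.38 to 0.88, unadjusted p = 0.411 by edgeR), and -0.23 without KO NCX rep3. In the hippocampus it was at 8.59, 7.51, 8.08, 9.12 and 6.59 CPM in controls and at 10.004, 5.56, 13.9, 5.55 and 5.38 CPM in cTKO libraries. Again rep3 was highest and 3 cTKO libraries were below every control. Its log2 fold change there was 0.020 (standard error 0.25, adjusted p = 0.989), and -0.27 without KO HP rep3. An unnamed transcript model on the opposite strand shares 273 of the 3553 exon bases of Cdkn1a, and whether reads were counted by strand is not given in the sources used here.

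Bbc3 and Pmaip1 encode PUMA and NOXA, BH3-only proteins that bind antiapoptotic members of the BCL-2 family. In the hippocampus, Bbc3 (chr7:16308393-16318205) was at 5.58, 9.27, 5.86, 8.51 and 7.84 CPM in controls and at 5.62, 11.8, 7.84, 10.2 and 8.34 CPM in cTKO libraries. KO HP rep2 and KO HP rep4, the libraries highest in Trp53, were also highest in Bbc3, and the others lay among the controls. This gave a log2 fold change of 0.24 (standard error 0.20, unadjusted p = 0.256 by edgeR). In the neocortex it was 0.11 (standard error 0.17, adjusted p = 0.871), with KO NCX rep3 at 10.6 CPM and the other 9 libraries at 5.12 to 7.10 CPM. Pmaip1 (chr18:66458533-66465565) was low, at 1.27 to 2.43 CPM in the hippocampus and 1.52 to 4.69 CPM in the neocortex. Its log2 fold changes were 0.067 and -0.25, with 95% intervals from -0.41 to 0.54 and from -0.84 to 0.34, the widest in the neocortex after Cdkn1a.

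The other targets act on RNA, metabolism and signalling. Zmat3 (chr3:32334792-32366014) encodes an RNA-binding zinc finger protein, Sesn2 (chr4:132492032-132510501) a stress sensor that restrains mTORC1, and Phlda3 (chr1:135766119-135769136) a PH-domain protein that competes with AKT for the membrane. Their log2 fold changes were -0.050, -0.068 and 0.045 in the hippocampus, with standard errors of 0.087, 0.097 and 0.099. In the neocortex they were -0.062, -0.016 and -0.070, with standard errors of 0.061, 0.12 and 0.13. None of these changes passed (lowest adjusted p 0.784). Sesn2 held the narrowest spread of any of the genes in control hippocampus, 15.3 to 15.5 CPM over 5 libraries, against 11.96 to 16.9 CPM in cTKO hippocampus. Eda2r (chrX:97333840-97377216), a receptor of the TNF receptor family, had only 1 to 20 counts in a library and was not tested for that reason. In a fit without the filter, its log2 fold changes were 0.26 in the hippocampus and -0.25 in the neocortex (adjusted p = 0.845 and 0.912).

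Library by library, the relation of the targets to Trp53 did not pass a test either. Over the 10 libraries of a region, deviations of log2 CPM from the genotype mean gave Pearson's r with Trp53 of -0.56 to 0.74 in the hippocampus and of -0.55 to 0.46 in the neocortex. Of the 9 relations in each region, 4 were positive. Without KO HP rep4 and KO NCX rep5, r was -0.54 to 0.69 in the hippocampus and -0.21 to 0.31 in the neocortex. With exact permutation of libraries within genotypes, 0 of the 18 relations had p under 0.05 and the lowest adjusted p was 0.542. The highest r was that of Ccng1 in the hippocampus, 0.74 (exact permutation p = 0.0681), with a Spearman's rho of 0.58 (exact permutation p = 0.210). It rested on 2 libraries: r was 0.38 without KO HP rep4 and -0.32 without KO HP rep4 and KO HP rep2. With raw totals in place of TMM, it was 0.82 (exact permutation p = 0.0426, adjusted p = 0.740).

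None of the 7 targets with a mean above 5 CPM was among the genes whose levels were most like those of Trp53, and Pmaip1 and Eda2r were too low to be ranked. Over the 18 libraries without KO HP rep4 and KO NCX rep5, the 5 genes with the highest r of deviations from the group means were Fam214b (0.88), Sppl2b (0.80), Lmtk3 (0.79), Tbc1d13 (0.79) and Mief2 (0.76), of 11546 genes with a mean above 5 CPM. The best placed target was Bbc3, at rank 1208 with r = 0.35, and Cdkn1a was at rank 8807 with r = -0.24. With all 20 libraries the first 5 were others, Pola2 (0.92), Tcf3 (0.87), Ncapd2 (0.86), Atad5 (0.85) and Lrwd1 (0.84), and Ccng1 was the best placed target at rank 1585 (r = 0.33). The libraries added in this ranking, KO HP rep4 and KO NCX rep5, held the most Trp53 and the highest mitotic sums of their regions. Their part in these r values was not tested. All r values describe likeness over libraries that share depth and scaling.

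Several targets were high together in the cTKO libraries rep3, a pattern chosen after its values were seen and given with no test. KO HP rep3 was highest of the 10 hippocampal libraries in Cdkn1a, Mdm2, Pmaip1 and Phlda3 and second in Zmat3, and it was lowest in Ccng1 and Sesn2. KO NCX rep3 was highest of the 10 neocortical libraries in Cdkn1a, Mdm2, Bbc3 and Phlda3, second in Pmaip1 and Zmat3, and lowest in Ccng1. Mdm2 was at 60.1 and 58.1 CPM in these libraries, and Phlda3 at 12.9 and 19.3 CPM. Their Trp53 was at 25.5 and 24.8 CPM, the lowest of the cTKO hippocampus and the second lowest of the cTKO neocortex. Their mitotic sums, 44.4 and 36.6 CPM, were within the range of the other libraries. The summed level of 10 fast immediate early genes, such as Fos and Egr1, was 848 CPM in KO HP rep3, above the 304 to 715 CPM of the other hippocampal libraries, and 1383 CPM in KO NCX rep3, within the 1074 to 2137 CPM of the others. The summed level of 8 oligodendrocyte markers was the highest of the region in both, at 7098 CPM in KO HP rep3 and 6056 CPM in KO NCX rep3. The other libraries held 4166 to 6545 CPM in the hippocampus and 3085 to 5103 CPM in the neocortex. The part of these lists of genes in the pattern was not tested. Whether a shared library number means a shared mouse is not given in the sources used here. Over all genes, deviations of cTKO libraries with the same number correlated between the regions with r of 0.345, 0.319 and 0.396 for rep1 to rep3 and of -0.0564 and -0.0713 for rep4 and rep5.

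**Figure D4:**
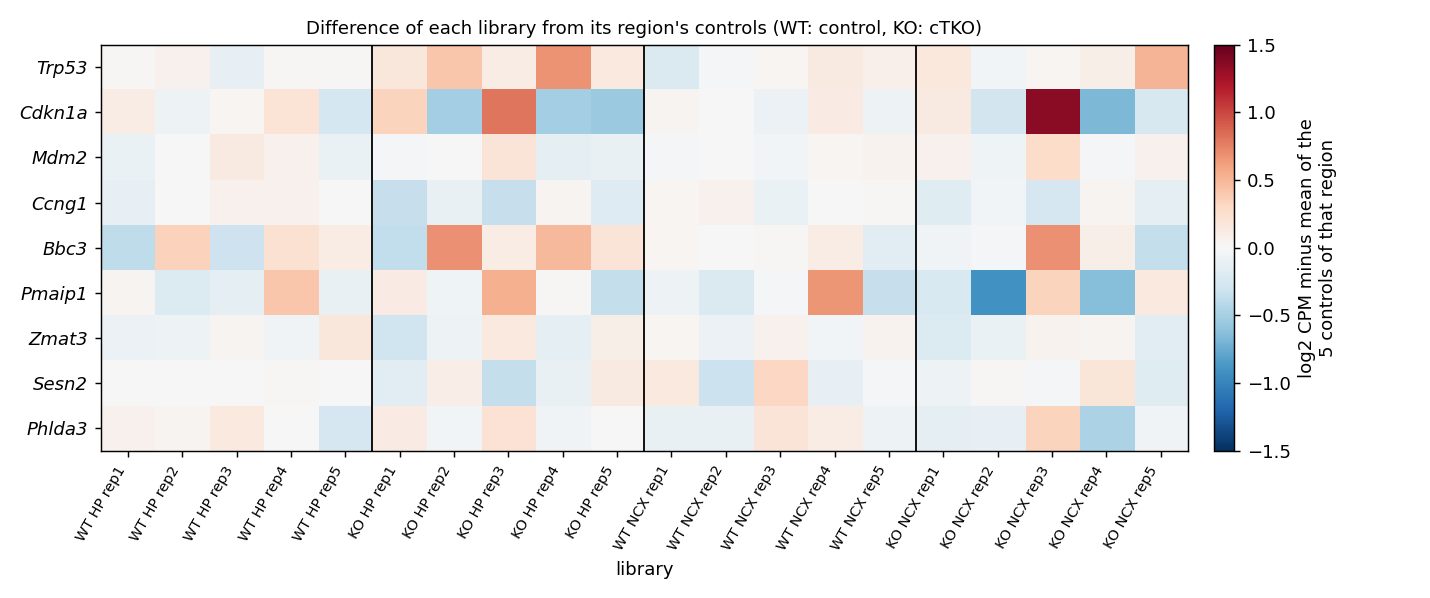
Log2 CPM of Trp53 and 8 targets in each library minus the mean of the 5 controls of that region (red higher, blue lower), with black lines between groups of 5 libraries. KO HP rep4 and KO NCX rep5 are red in Trp53, and KO HP rep3 and KO NCX rep3 are red in Cdkn1a, Mdm2 and Phlda3 and blue in Ccng1.

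Levels were compared between genes only as CPM per kilobase of exons (union of exons in GENCODE vM21). In control hippocampus the order was Ccng1 (37.3 ± 1.97), Mdm2 (10.3 ± 0.740), Zmat3 (8.74 ± 0.669), Phlda3 (7.15 ± 0.726), Trp53 (5.84 ± 0.294), Sesn2 (4.42 ± 0.030), Bbc3 (3.49 ± 0.768), Cdkn1a (2.25 ± 0.276), Pmaip1 (0.613 ± 0.121) and Eda2r (0.0828 ± 0.0223 CPM per kilobase, SD, n = 5). Mdm2 and Zmat3 overlapped in their ranges, as did Phlda3 and Trp53, and each other gene was above the next in every library. In control neocortex Cdkn1a stood at rank 5, at 8.08 ± 0.477 CPM per kilobase, above Trp53 at 6.02 ± 0.540, whereas in control hippocampus it stood at rank 8, below Trp53.

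Between the regions of control mice, 6 of the 9 genes tested differed, where the test called 59.1% of all genes (29.8% higher and 29.2% lower in the hippocampus). The neocortex held more Cdkn1a, Pmaip1, Zmat3 and Phlda3, and the hippocampus held slightly more Ccng1 and Sesn2. Cdkn1a was at 28.7 ± 1.69 CPM in neocortex and 7.98 ± 0.981 CPM in hippocampus (SD, n = 5 each), a log2 fold change of hippocampus over neocortex of -1.85 (standard error 0.089, adjusted p = 2.00e-10, edgeR's quasi-likelihood test). Pmaip1, Zmat3 and Phlda3 had log2 fold changes of -0.86, -0.59 and -0.46 (standard errors 0.22, 0.056 and 0.096, adjusted p = 0.00360, 3.41e-07 and 0.000712). For these 4 genes the regions did not overlap, as was the case for 44.2% of all genes, 21.8% with the hippocampus lower. Ccng1 and Sesn2 had log2 fold changes of 0.17 and 0.26 (adjusted p = 0.0100 and 0.0370), and their ranges overlapped. The call of Sesn2 was lost when any one of 7 libraries was left out (WT HP rep1 to rep4 and WT NCX rep2, rep4 and rep5, adjusted p 0.0541 to 0.108). Trp53 itself did not pass, at -0.047 (95% interval -0.21 to 0.11), nor did Bbc3 at 0.16 and Mdm2 at 0.13 (adjusted p = 0.342 and 0.0642), although Mdm2 passed when WT HP rep1 or WT HP rep5 was left out (adjusted p = 0.0380 and 0.0320).

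Cell type markers differed between the regions as well. Of 8 markers each, 6 of interneurons were lower and 6 of astrocytes higher in control hippocampus, and 9 of 10 fast immediate early genes were lower, with a median log2 fold change of -1.38, where 29.8% of all genes were higher and 29.2% lower. The summed level of 8 choroid plexus markers was 82.3 to 2796 CPM in control hippocampus and 11.1 to 17.6 CPM in control neocortex. That of 8 oligodendrocyte markers had medians of 6244 and 4698 CPM, with ranges that overlapped. The part of these markers and genes in the regional levels of the targets was not tested. RNA of the regions was extracted with different kits, so the region and the kit cannot be told apart.

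In cTKO mice, 2 of the 9 genes differed between the regions, where 41.3% of all genes did, 21.1% with the hippocampus lower. They were Cdkn1a, with a log2 fold change of -2.09 (adjusted p = 0.00110), and Zmat3, with -0.59 (adjusted p = 0.000274). Phlda3 at -0.36 and Pmaip1 at -0.55 did not pass (adjusted p = 0.0531 and 0.126). The difference between the regions in the genotype change passed for none of the 9 genes (0 called by the interaction term in edgeR's quasi-likelihood test, beside 0.0564% of all genes, and 0 at an unadjusted p under 0.05, beside 3.75%).

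**Figure D5:**
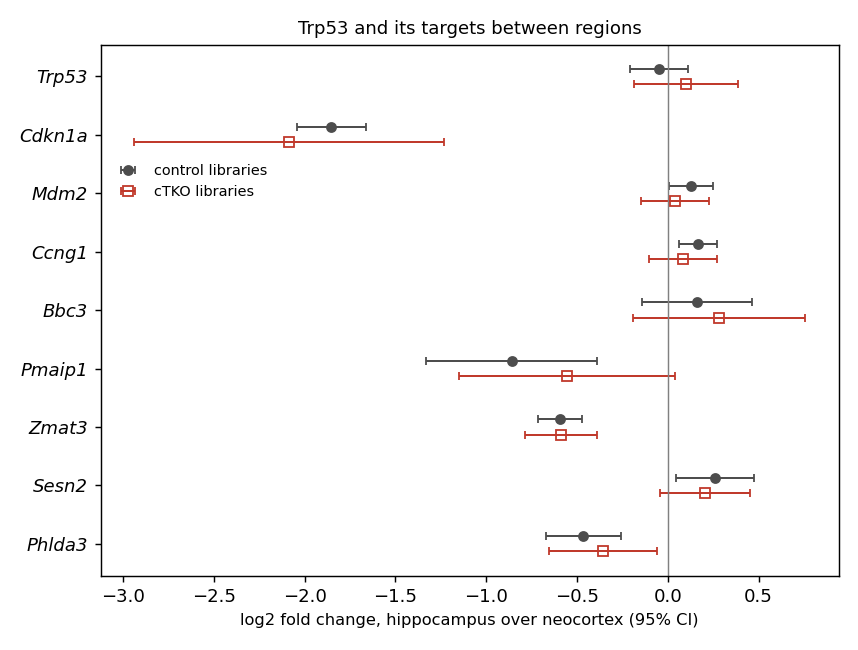
Log2 fold change of hippocampus over neocortex with its 95% interval for Trp53 and 8 targets, in control (filled) and cTKO libraries (open). Cdkn1a lies farthest below 0 in both genotypes (-1.85 and -2.09), Zmat3 is at -0.59 in both, and the intervals of Trp53 include 0.

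The wider p53 network was read from 76 further genes in 5 groups. In the hippocampus 70 were tested and 1 was higher and 0 lower, where 0.314% of all genes were called higher and 0.175% lower. In the neocortex 68 were tested and 0 were higher and 2 lower, where 0.0867% of all genes were called higher and 0.101% lower. At an unadjusted p under 0.05, 4 were higher and 12 lower in the hippocampus, beside 6.13% and 5.88% of all genes. In the neocortex 3 were higher and 4 lower, beside 5.57% and 4.86%. The median log2 fold changes were -0.0024 and 0.0081, beside 0.0049 and 0.0090 over all genes tested.

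Among 12 genes of cell cycle arrest, Rprm rose in the hippocampus. Rprm encodes Reprimo, a p53-induced protein linked to arrest in G2. It was at 22.9, 22.2, 19.6, 24.4 and 23.7 CPM in WT HP rep1 to rep5 and at 98.7, 94.2, 40.0, 95.1 and 56.7 CPM in KO HP rep1 to rep5, so that every cTKO library was above every control. This was a log2 fold change of 1.77 (standard error 0.22, adjusted p = 0.00274, edgeR's quasi-likelihood test). In the neocortex the means were 44.5 ± 2.27 and 51.4 ± 9.51 CPM (SD, n = 5 each), and the difference between the regions was 1.56 on the log2 scale (standard error 0.26, adjusted p = 0.0146). KO HP rep3, the highest cTKO library in Cdkn1a, was the lowest in Rprm.

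Btg2, an antiproliferative gene of the same group, fell in the neocortex. It was at 20.9, 24.8, 18.5, 18.4 and 21.6 CPM in WT NCX rep1 to rep5 and at 13.4, 10.7, 14.7, 14.9 and 10.4 CPM in KO NCX rep1 to rep5. The groups did not overlap, as was the case for 2.36% of all genes, 1.57% with cTKO lower. Its log2 fold change was -0.70 (standard error 0.12, adjusted p = 0.0352). The call was lost with a replicate block on the library number, under which 0 of the wider genes were called (lowest adjusted p 0.0823). In the hippocampus controls held 15.8 to 21.9 CPM and cTKO libraries 10.5 to 15.3 CPM. The groups did not overlap there either, as was the case for 3.15% of all genes, 1.23% with cTKO lower. Btg2 did not pass edgeR's quasi-likelihood test in that region. The study called Btg2 lower in both regions with edgeR, and it reports the same pattern by qRT-PCR in other mice. Btg2 is also induced by neuronal activity. Of the 10 fast immediate early genes 1 fell in the neocortex, where 0.101% of all genes were called lower. The median log2 fold change of these 10 genes there was -0.27. Their part in the fall of Btg2 was not tested.

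Kitl, the ligand of the receptor KIT and 1 of 10 genes of secreted and surface proteins, fell in the neocortex from 63.6 ± 1.75 to 48.4 ± 4.29 CPM (SD, n = 5 each), a log2 fold change of -0.39 (standard error 0.066, adjusted p = 0.0352). The call count of 2 in the neocortex became 0 with the replicate block, which called 0.0867% of all genes. It also became 0 when any one of WT NCX rep1 to rep5, KO NCX rep1 or KO NCX rep2 was left out. The count stayed at 2 without KO NCX rep5, where 0.966% of all genes were called. In the hippocampus Kitl had a log2 fold change of -0.46 and Cd82, a tetraspanin, of -0.22, and neither passed (adjusted p = 0.220 and 0.335).

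Of 22 regulators of p53, 21 were tested in the hippocampus and 18 in the neocortex, of 15 other apoptosis genes 14 and 15, and of 17 genes of DNA repair and metabolism all 17, and 0 of them passed in either region. Among regulators in the hippocampus, Prkdc, the kinase of DNA end joining, had a log2 fold change of -0.31 and Chek1, a checkpoint kinase, of 0.85 (adjusted p = 0.130 and 0.491). In the neocortex, Rps27l, a ribosomal protein that p53 induces, was at 0.66 and Hipk2, a kinase of p53, at -0.33 (adjusted p = 0.421 and 0.459). Of the apoptosis genes, Trp53inp1 and Perp had log2 fold changes of -0.29 and -0.77 in the hippocampus (adjusted p = 0.173 and 0.323), and Apaf1, the core of the apoptosome, and Siva1 had 0.38 and 0.37 in the neocortex (adjusted p = 0.171 and 0.624). Of the repair and metabolism genes, Rrm2b, a p53-inducible subunit of ribonucleotide reductase, and Polk, a translesion polymerase, had -0.21 and -0.25 in the hippocampus (adjusted p = 0.234 and 0.279). Fdxr, a mitochondrial reductase, and Gls2, a glutaminase, had -0.33 and -0.13 in the neocortex (adjusted p = 0.411 and 0.547).

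Between the regions of control mice, 22 of the 70 wider p53 genes tested were higher and 19 lower in the hippocampus, where 29.8% of all genes were higher and 29.2% lower. These genes had a median log2 fold change of 0.0037 beside 0.012 over all genes. Mdm4, the partner of MDM2 that inhibits p53, was lower in the hippocampus (-0.76, adjusted p = 8.69e-09), as were Rprm (-0.99, adjusted p = 1.01e-08) and Gadd45a, a growth arrest gene induced by DNA damage (-1.22, adjusted p = 3.63e-05). Trp73, which encodes the p53 paralog p73, was higher (3.07, adjusted p = 1.86e-07), as were Apaf1 (0.59, adjusted p = 9.94e-05) and Bax, an effector of mitochondrial apoptosis (0.31, adjusted p = 0.00409).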

How the data were processed

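RNA-seq of neocortex and hippocampus from control and cTKO mice was used, with 5 libraries per group. The authors mapped reads to mm10 with STAR 2.5.4a, used HTSeq to count them and deposited raw counts per gene symbol for each library, and the strand setting is not given in the sources used here. The study gives 5 mice per genotype, from which both regions were collected.

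Genotypes were compared within each region with edgeR 4.0.16 in R 4.3.3 (CPM above 1 required in 5 or more libraries, TMM, glmQLFit and glmQLFTest, Benjamini-Hochberg adjustment over all genes tested). Single genes were also compared by exact two-sided permutation tests of log2 CPM (prior count 2). Regions were compared in control and in cTKO libraries, the latter added after seeing the data, and the region by genotype interaction was fitted over all 20 libraries. The main fits of these comparisons treated the libraries as independent, although both regions came from the same mice. In controls, libraries with the same number deviated together between regions (r 0.130 to 0.335 in 5 of 5 pairs), so their numbers were taken as pairs in an alternative fit. In cTKO libraries 3 of 5 pairs did so (r -0.0713 to 0.396), and their regions were compared unpaired. Alternatives were the exact and likelihood ratio tests, DESeq2 1.42.0, its size factors, other filters, all libraries in 1 fit, a replicate block, a prior count of 0.5, raw totals in place of TMM and each library left out. Permutation tests without KO HP rep4 or KO NCX rep5 were added after seeing the data.

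The 10 genes and all lists were chosen with earlier results of these data known. The genes named are the 10, the 3 deleted genes, in each other list those under the threshold in a region (at most 5) or otherwise the 2 with the lowest p, and the 5 genes most like Trp53. One listed gene was matched by an older symbol. Positions are from GENCODE vM21 (GRCm38) and promoter sequences from RefSeq. Procedures were tested on simulated data.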

Additional observations from a re-analysis of the deposited data

Results flagged for a closer look

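In 40 sets of 5 libraries (10 genes in 4 groups), 4 had a highest or lowest library far from its nearest neighbour by Dixon's ratio, and chance gives about 1 in 20. Cdkn1a was at 73.2 CPM in KO NCX rep3, against 17.97 to 31.5 CPM in the other 4 cTKO libraries of the neocortex. Trp53 was at 21.6 CPM in WT HP rep3, below the 23.9 to 24.7 CPM of the other controls, on the side that widens the difference between genotypes. That library also held the most choroid plexus mRNA of the hippocampus. Its 8 markers summed to 2796 CPM, against 82.3 to 620 CPM in the other hippocampal libraries, and their part in its Trp53 level was not tested. Pmaip1 was at 4.69 CPM in WT NCX rep4, against 2.29 to 2.88 CPM in the other controls. Sesn2 was at 15.5 CPM in WT HP rep4, where the others were all at 15.3 CPM. The change of Rprm differed between the regions by 1.56 on the log2 scale, by the interaction term.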

How the results depend on the processing

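The count of 0 of 9 genes called held in each region under every alternative run, as did the count of 0 for the interaction and of 0 relations with Trp53 that passed adjustment. At an unadjusted p under 0.05, 1 relation was found with raw totals. The log2 fold change of Trp53 stayed between 0.21 and 0.37 in the hippocampus and between 0.059 and 0.21 in the neocortex, without passing. The count of wider p53 genes in the hippocampus, 1, was 2 by the exact test, 3 by the likelihood ratio test and 4 by DESeq2. These tests called 1.88%, 1.89% and 2.42% of all genes, against 0.489% by the main test. The count was 2 in 1 fit of all 20 libraries and 1 to 2 with a library left out. It was 2 without WT HP rep5 or KO HP rep5. In the neocortex the count, 2, was 0 with a replicate block, 1 in 1 fit of all libraries and 0 to 2 with a library left out. There the main test called 0.188% of all genes and the block 0.0867%. The shares of all genes in the 1 fit and in most fits with a library left out are not given here. The replicate block gave Trp53 a log2 fold change of 0.31 in the hippocampus and 0.16 in the neocortex and changed no other call. Deviations of control and cTKO libraries with the same number correlated with r of -0.137 to 0.140 in the hippocampus (over 0.1 in 1 of 5 pairs) and of -0.00912 to 0.221 in the neocortex (0.148 to 0.221 in rep1 to rep3), short of the r over 0.1 in every pair required to treat numbers as pairs. In the neocortex 4 of 5 libraries correlated best with their own number, a hint from the data and not from the design. Between the regions of controls the count of 6 was 5 to 7, and the block left it at 6. Some values changed sign, none of them called. With a library left out, the log2 fold change in the hippocampus ranged from -0.27 to 0.14 for Cdkn1a, -0.067 to 0.024 for Mdm2, -0.013 to 0.085 for Phlda3, -0.10 to 0.0021 for Zmat3 and -0.082 to 0.19 for Pmaip1. In the neocortex it ranged from -0.092 to 0.061 for Sesn2, -0.23 to 0.41 for Cdkn1a, -0.067 to 0.20 for Bbc3 and -0.19 to 0.014 for Phlda3. The difference between regions ranged from -0.035 to 0.063 for Zmat3, -0.12 to 0.028 for Sesn2 and -0.51 to 0.26 for Cdkn1a, and that of Bbc3 was -0.024 without KO HP rep4 and KO NCX rep5. Cdkn1a in the hippocampus was at -0.075 with the replicate block. Differences of mean log2 CPM in the hippocampus without KO HP rep4 turned to 0.019 for Cdkn1a, 0.017 for Mdm2 and -0.031 for Eda2r. That of Sesn2 in the neocortex turned to 0.027 without KO NCX rep5 and 0.0075 with raw totals. The causes were not tested. The exact test could not be run for the interaction. With 5 libraries per group, 95% intervals of the targets reached 0.88 on the log2 scale (Cdkn1a, neocortex), and Eda2r was too low to test.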
